A study of Mus musculus with 4 samples.

Results

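The cell cycle and cyclin genes described here are 46 listed genes, found by their symbol among the 21959 gene IDs of the deposited table, where each of the 46 has 1 row. They were placed by role into 10 genes of G1 control, 11 of S phase and 25 of G2 and mitosis. Reads per gene were measured by RNA sequencing of liver from wild-type (WT) mice with acute-on-chronic liver failure, in which an acute insult strikes a liver with chronic disease. All 4 livers carried this disease: 2 were treated with saline (saline 1 and 2) and 2 with baicalein, a plant flavone (baicalein 1 and 2). Strain, age, dose, time of collection and the way the disease was induced are not stated in the labels, and no healthy liver was analysed here.

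Cells divide under cyclins, which switch on cyclin-dependent kinases in turn. D-type cyclins act in G1 by inactivating the retinoblastoma protein, which frees E2F factors to switch on genes of DNA synthesis, and the A- and B-type cyclins with Cdk1 later drive mitosis. Adult hepatocytes are mostly at rest and re-enter the cycle after injury or loss of tissue, and D1 is the cyclin best known for marking that entry in liver.

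Library totals ran from 13976440 to 18731616 reads, and 14409 to 15530 genes had at least 1 read in a liver. Of these livers, saline 1 and baicalein 2 held skeletal muscle reads: 6 muscle markers summed to 4602 and 1183 CPM (reads scaled by the normalised library size), against 1.24 in saline 2 and 0.619 in baicalein 1. The 4 Y-linked genes checked had 820 and 836 reads with saline and 2 and 1 with baicalein, so treatment and the difference in Y-linked reads cannot be told apart in any result here. Hepatocyte markers summed to 78192 and 74118 CPM in saline 1 and 2 and to 110253 and 93658 CPM in baicalein 1 and 2; of the 6, Alb and Cps1 rose and Serpina1c and Tat fell. Their part in the results below was not tested. The labels do not tie each liver to a separate animal, and the spread behind the p-values may therefore be technical.

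With baicalein, transcripts of 2 of the 3 D-type cyclins were higher, and 5 of 25 genes of G2 and mitosis were lower, while 15 of the 25 were tested and not called and 5 were not tested. Of the 46 genes, 40 had enough reads to be tested; 2 rose (Ccnd1 and Ccnd2) and 7 fell (Mcm5, Mcm7, Plk1, Cdc20, Ccnb2, Prc1 and Cdk1) at an adjusted p below 0.05 in edgeR's quasi-likelihood test, adjusted over all 12657 genes tested. Across all tested genes, 7.65% were called higher and 7.9% lower. A filter on low counts bears on this, since Plk1, Ccnb2, Prc1 and Top2a passed it only through their saline livers, so 3 of the 7 that fell were tested only because they were high in saline. Left-out livers moved these counts: edgeR called 0 members lower without saline 1 (5 of 41 tested had an unadjusted p below 0.05, and DESeq2 and limma-voom also called 0), 1 lower without baicalein 1, and 3 lower without saline 2 or without baicalein 2. It called 1 higher, Ccnd1, without saline 2, baicalein 1 or baicalein 2. Over all 46 genes, fitted with no filter, the median log2 fold change was -0.57, beside 0.03 for all 16298 genes with any read. Livers of the 2 groups did not overlap in CPM for 32 of the 46, with baicalein lower in 27 and higher in 5. In all genes with any read, groups did not overlap with baicalein lower in 24.7% and with baicalein higher in 26.8%.

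**Figure D1:**
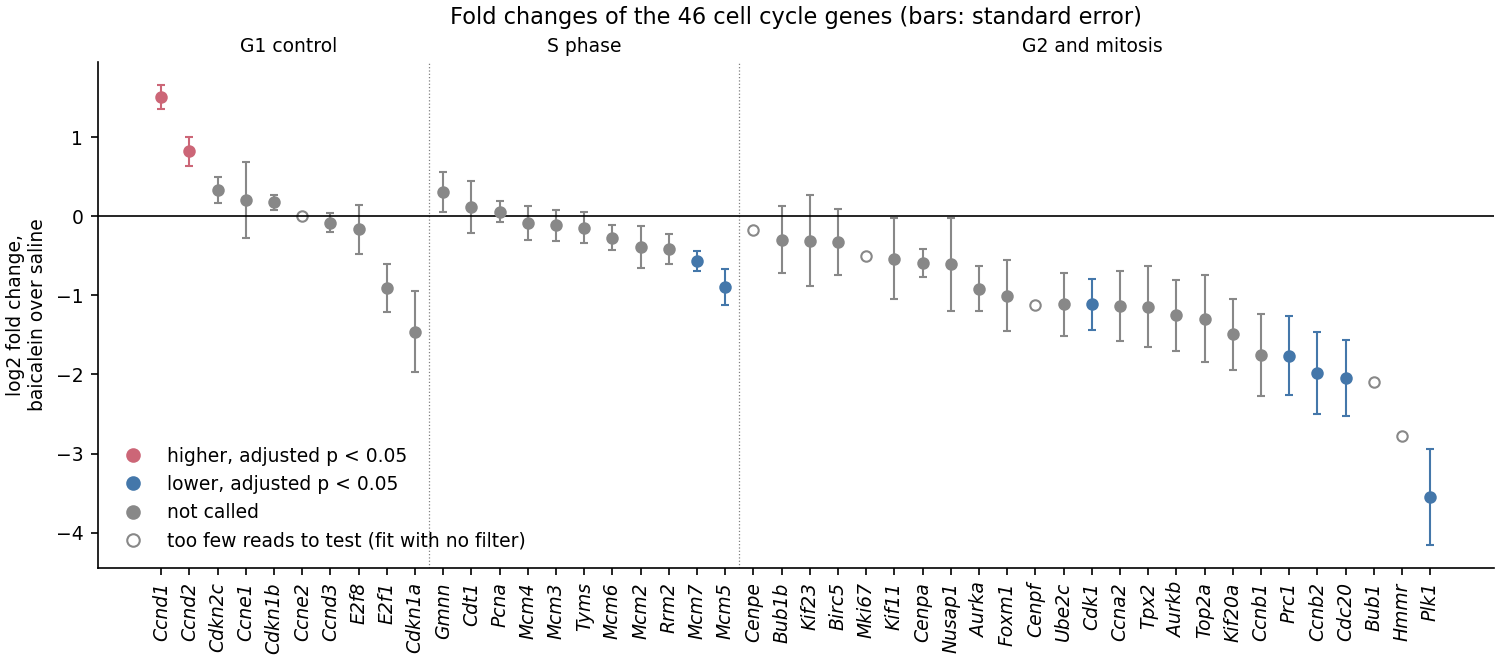
The vertical axis gives the log2 fold change, baicalein over saline, of each of the 46 genes, grouped by role and ordered within a group; bars are standard errors, and open circles are the 6 genes with too few reads to test. Ccnd1 stands highest at 1.51 and Plk1 lowest at -3.55, and all 25 genes of G2 and mitosis lie below 0.

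Levels per length were low for most of these genes. In deposited FPKM (reads scaled by gene length and library size), averaged over the 4 livers, 26 of the 46 were under 1 and the median was 0.760. Ccnd1 (9.48), Cdkn1b (9.11) and Pcna (8.24) had the highest levels. Cenpf, encoding a kinetochore protein, had the lowest at 0.00636. In bulk tissue, fewer dividing cells and less RNA per dividing cell cannot be told apart.

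Among the genes of G1 control, only Ccnd1 and Ccnd2 passed. Ccnd1 (ENSMUSG00000070348, cyclin D1; chromosome 7, 144483668 to 144493662 as the table gives it, its build not settled) had 449 and 266 reads with saline and 956 and 1300 with baicalein. Both baicalein livers were above both saline livers, and they lay close together in CPM. Its level rose from 22.9 ± 4.95 CPM (SD, n = 2) to 65.3 ± 0.623 CPM (SD, n = 2), a 2.85-fold difference (log2 fold change 1.51, SE 0.15, adjusted p = 0.00133 in edgeR). It was called in each of 11 alternative fits. With all livers kept, the planned fits gave adjusted p from 1.82e-13 (DESeq2) to 0.00457 (replicate number as a block). A fit of crossed pairs, chosen after seeing the data, gave 2.95e-18. That fit also gives the low end of every range over the 11 alternatives printed below. Leaving out a liver gave Ccnd1 log2 fold changes of 1.30 to 1.74. Part of Ccnd1, 1771 bases, overlaps LTO1 on the other strand, which averaged 172 reads against 743 for Ccnd1, and the labels do not say whether the counting used strand.

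Cyclin D2, from Ccnd2, had 153 and 97 reads with saline and 182 and 317 with baicalein. The groups did not overlap once scaled, at 8.03 ± 1.36 CPM against 14.2 ± 2.33 CPM (SD, n = 2 each), and Ccnd2 rose by 0.82 on the log2 scale (SE 0.19, edgeR adjusted p = 0.0204). Leaving out saline 2, baicalein 1 or baicalein 2 ended its call, at an adjusted p of at most 0.171 (range over all 11 alternatives 1.16e-04 to 0.171). Ccnd3, encoding cyclin D3, had 311 and 257 reads with saline and 258 and 344 with baicalein, or 18.5 ± 0.326 and 17.5 ± 0.409 CPM (SD, n = 2 each). Its log2 fold change was -0.09 (SE 0.12, edgeR adjusted p = 0.695), and it did not pass. Per length, Ccnd1 was the most abundant of the 3 in each group, at 4.72 ± 0.957 FPKM with saline and 14.2 ± 0.699 FPKM with baicalein (SD, n = 2 each). Ccnd3 came next at 2.05 ± 0.0637 and 2.04 ± 0.0719 FPKM, and Ccnd2 last at 0.829 ± 0.129 and 1.55 ± 0.346 FPKM. Whether the fold changes of the 3 cyclins differed from each other was not tested.

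The E-type cyclins, which work with Cdk2 at entry into S phase, were scarce. Ccne1 had 30 and 13 reads with saline and 24 and 30 with baicalein, with overlapping groups (log2 fold change 0.20, SE 0.48, edgeR adjusted p = 0.832). Ccne2 had 5 to 13 reads in the 4 livers and was not tested.

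Inhibitors of cyclin-dependent kinases did not pass. Cdkn1a, encoding p21, the inhibitor that p53 switches on, had 147 and 75 reads with saline and 21 and 73 with baicalein. Scaled to CPM the groups did not overlap (7.06 ± 2.24 against 2.54 ± 1.55, SD, n = 2 each), but baicalein 1 and baicalein 2 lay far apart, and the log2 fold change of -1.46 (SE 0.51) had an adjusted p of 0.136 in edgeR. Without baicalein 2 it did pass (log2 fold change -2.28, adjusted p = 0.0227), and its adjusted p over all 11 alternatives ran from 5.67e-06 to 0.382. Cdkn1b, encoding the inhibitor p27, had 625 and 562 reads against 626 and 898, or 38.9 ± 3.00 and 43.9 ± 1.24 CPM (SD, n = 2 each; log2 fold change 0.18, SE 0.10, edgeR adjusted p = 0.262). For Cdkn2c, encoding p18, an inhibitor of Cdk4 and Cdk6, the log2 fold change was 0.32 (SE 0.16, edgeR adjusted p = 0.228).

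E2f1, an activator of S phase genes, had 89 and 56 reads with saline and 39 and 46 with baicalein. Its groups did not overlap in CPM (4.66 ± 0.812 and 2.49 ± 0.274, SD, n = 2 each), yet it did not pass (log2 fold change -0.91, SE 0.30, edgeR adjusted p = 0.0823). E2f8, a repressor of E2F targets that is known in liver for its part in polyploidy, had 61 to 70 reads in every liver (log2 fold change -0.17, SE 0.31, edgeR adjusted p = 0.784).

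**Figure D2:**
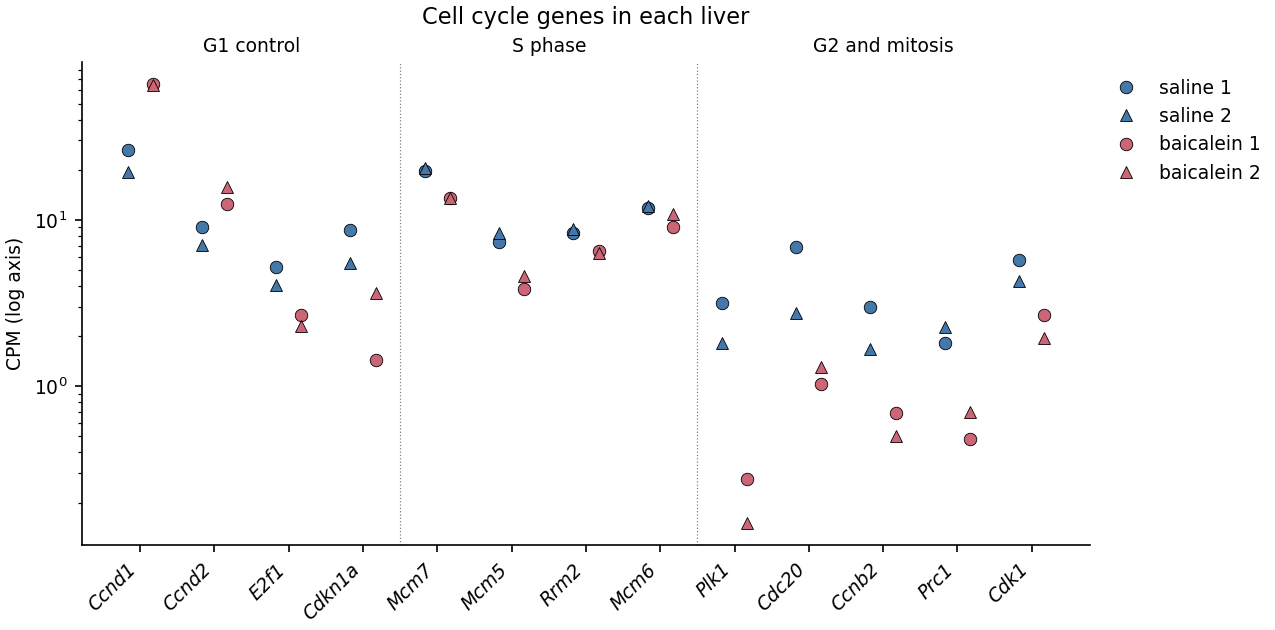
Each symbol is 1 liver's CPM (log axis) for the 9 genes called and for E2f1, Cdkn1a, Rrm2 and Mcm6, with saline in blue and baicalein in red. In none of the 13 genes do the 2 colours overlap, and Plk1 is at 0.275 and 0.150 CPM with baicalein beside 3.17 and 1.82 CPM with saline. The 13 were picked by small p on these same livers, which favours separated groups. In all genes with any read, groups did not overlap with baicalein lower in 24.7% and higher in 26.8%.

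Of the 11 genes of S phase, the 2 that passed both encode subunits of the MCM helicase. The 6 genes Mcm2 to Mcm7 encode the ring that unwinds DNA at replication origins, and they work as 1 complex. Mcm7 had 334 and 281 reads with saline and 198 and 270 with baicalein. Replicates were close, at 20.1 ± 0.608 and 13.5 ± 0.102 CPM (SD, n = 2 each), and Mcm7 fell by 0.57 on the log2 scale (SE 0.12, edgeR adjusted p = 0.0157). Mcm5 had 126 and 115 reads against 56 and 92, and fell from 7.90 ± 0.693 to 4.22 ± 0.523 CPM (SD, n = 2 each; log2 fold change -0.90, SE 0.23, edgeR adjusted p = 0.0295). Neither call survived the loss of any 1 liver, with adjusted p of 0.0528 to 0.102 for Mcm7 and 0.0801 to 0.187 for Mcm5, and DESeq2 did not call Mcm5. Over all 11 alternatives the adjusted p ran from 0.00111 to 0.102 for Mcm7 and from 0.00189 to 0.187 for Mcm5. Mcm7 overlaps Cops6 by 64 bases and Ap4m1 by 421 bases, both on the other strand.

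The other 4 MCM subunits did not pass. Mcm6 was at 12.0 ± 0.257 and 9.93 ± 1.20 CPM (SD, n = 2 each; log2 fold change -0.27, SE 0.16, edgeR adjusted p = 0.302). Mcm2, Mcm3 and Mcm4 had log2 fold changes of -0.39, -0.11 and -0.08. Pcna, the sliding clamp of DNA polymerase, had 302 and 288 reads with saline and 280 and 420 with baicalein. Its groups overlapped, at 19.4 ± 2.30 and 20.1 ± 1.20 CPM (SD, n = 2 each; log2 fold change 0.05, SE 0.13, edgeR adjusted p = 0.836).

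Enzymes that make DNA precursors gave a log2 fold change of -0.42 (SE 0.19, edgeR adjusted p = 0.179) for Rrm2, a subunit of ribonucleotide reductase, and of -0.14 (SE 0.19) for Tyms, thymidylate synthase. Rrm2 had 141 and 121 reads against 94 and 127, with no overlap in CPM (8.56 ± 0.379 and 6.40 ± 0.0903, SD, n = 2 each). The licensing factor gene Cdt1 and its inhibitor Gmnn (geminin) were at log2 fold changes of 0.12 (SE 0.32) and 0.31 (SE 0.25). In all, 0 of the 11 S phase genes rose and 2 fell in edgeR, beside 7.65% and 7.9% of all tested genes. Of the 11, 0 had an unadjusted p below 0.05 on the higher side in edgeR. DESeq2 and limma-voom called 0 higher as well.

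Of the 25 genes of G2 and mitosis, 5 fell, 0 rose, 15 were tested and not called, and 5 had too few reads to test (edgeR; DESeq2 and limma-voom called 0 of them higher, and 0 had an unadjusted p below 0.05 on the higher side). Without saline 1 none of the 5 calls held, and 19 of 20 tested lay below 0. Across all tested genes, 7.9% were called lower. Of the 5 that fell, Plk1, Ccnb2 and Prc1 passed the filter on low counts only through their saline livers. Livers did not overlap, with baicalein lower, for 19 of the 25 (24.7% of all genes with any read did so). The 25 summed to 72.9 and 56.8 CPM in saline 1 and 2 and to 33.4 and 29.4 CPM in baicalein 1 and 2.

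Plk1 (ENSMUSG00000030867, chromosome 7, 121758662 to 121769096 as the table gives it) encodes polo-like kinase 1, which acts at mitotic entry, spindle poles and cytokinesis. It had 54 and 25 reads with saline and 4 and 3 with baicalein. That is 2.5 ± 0.955 against 0.212 ± 0.0887 CPM (SD, n = 2 each), 11.8-fold lower with baicalein (log2 fold change -3.55, SE 0.60, edgeR adjusted p = 0.00502). By counting error alone, the ratio of the summed reads was 12.7 with a 95% interval (exact binomial) of 5.89 to 32.6. That interval leaves out the spread between livers, and Plk1 passed the filter on low counts only through its saline livers. Without saline 1 the call was lost (log2 fold change -3.09, adjusted p = 0.167; range over 11 alternatives 1.41e-06 to 0.167).

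Cdc20, the activator of the anaphase-promoting complex, had 117 and 38 reads with saline and 15 and 26 with baicalein. Saline 1 stood well above saline 2, and both lay above the baicalein livers. Cdc20 fell from 4.82 ± 2.90 to 1.16 ± 0.188 CPM (SD, n = 2 each; log2 fold change -2.04, SE 0.48, edgeR adjusted p = 0.0257). Without saline 1 its log2 fold change was -1.25 (adjusted p = 0.314), and the call was also lost without baicalein 1 or baicalein 2 and with limma-voom (range over 11 alternatives 8.18e-06 to 0.314).

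Ccnb2, encoding cyclin B2, had 51 and 23 reads against 10 and 10, and fell from 2.34 ± 0.934 to 0.593 ± 0.133 CPM (SD, n = 2 each; log2 fold change -1.98, SE 0.52, edgeR adjusted p = 0.0336). The kinase that it activates, Cdk1, had 97 and 59 reads against 39 and 39, and fell from 5.0 ± 0.989 to 2.31 ± 0.520 CPM (SD, n = 2 each; log2 fold change -1.12, SE 0.32, edgeR adjusted p = 0.0498). Prc1, which bundles microtubules of the central spindle, had 31 and 31 reads against 7 and 14, and fell from 2.04 ± 0.310 to 0.590 ± 0.154 CPM (SD, n = 2 each; log2 fold change -1.76, SE 0.50, edgeR adjusted p = 0.0453). In each of these 3 genes both saline livers were above both baicalein livers, but the values stand near the threshold. A call on these same livers favours separated groups, and 24.7% of all genes with any read separated this way. Leaving out any 1 liver ended each of the 3 calls, with adjusted p of 0.0865 to 0.431 for Ccnb2, 0.0933 to 0.312 for Cdk1 and 0.128 to 0.345 for Prc1, and DESeq2 called none of the 3. Their adjusted p over all 11 alternatives ran from 0.00142 to 0.431, from 0.00315 to 0.312 and from 0.00633 to 0.345. Limma-voom and the fit with no filter did not call Prc1 either, nor did a minimum mean CPM of 1 leave Cdk1 called. Rccd1 on the other strand overlaps Prc1 over 21810 bases and averaged 38.3 reads against 20.8, so the reads of Prc1 are uncertain. Smaller overlaps with a gene on the other strand touch Cdc20 (53 bases, Elovl1), Kif20a (2327 bases, Cdc23), Ccna2 (863 bases, Exosc9) and Ccnd3 (361 bases, Bysl). They also touch Ccne2 (5622 bases, Ints8), Ube2c (1662 bases, Tnnc2) and Nusap1 (172 bases, Oip5). Elovl1, Cdc23, Exosc9, Bysl and Ints8 averaged more reads than the gene they overlap, such as 216 for Cdc23 against 26 for Kif20a. Tnnc2 and Oip5 averaged fewer. GENCODE M21 lists processed pseudogene copies of Ccnb1, Ccnb2, Ccnd3, Pcna and Tyms, and the labels do not say how reads shared with such copies were counted, so these genes are uncertain too.

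Several mitotic genes lay just beyond the threshold. Ccnb1, encoding cyclin B1, had 75 and 24 reads against 15 and 16 (log2 fold change -1.75, SE 0.52, edgeR adjusted p = 0.0554). Kif20a, a kinesin of cytokinesis, had 46 and 29 reads against 14 and 15 (log2 fold change -1.49, SE 0.44, adjusted p = 0.0552 in edgeR). For Cenpa, the centromeric histone, the counts were 228 and 180 against 146 and 152, with a log2 fold change of -0.59 (SE 0.18, edgeR adjusted p = 0.0561). Aurka, the spindle pole kinase, had 119 and 68 reads against 48 and 61 (log2 fold change -0.91, SE 0.28, edgeR adjusted p = 0.0608). In all 4 of these genes both baicalein livers lay below both saline livers, as in 24.7% of all genes with any read. The 4 were picked by small p on these same livers, which favours separated groups.

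The remaining tested mitotic genes had log2 fold changes from -1.30 (Top2a, the topoisomerase that untangles DNA) to -0.30 (Bub1b, a spindle checkpoint kinase). Aurkb, Ccna2, Ube2c, Tpx2 and Foxm1, the last a transcription factor that drives mitotic genes, lay between -1.25 and -1.0. Kif11, Kif23, Nusap1 and Birc5 lay between -0.61 and -0.31, with standard errors of 0.41 to 0.58. None of these 11 passed, and their groups overlapped for Kif23, Nusap1, Birc5 and Bub1b.

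Reads were too few to test 5 mitotic genes. Mki67, whose protein Ki-67 is the usual stain for dividing cells, had 10 and 8 reads with saline and 7 and 7 with baicalein. At this depth only a large difference in it could have been seen, and it was not tested. Hmmr, encoding a microtubule-binding spindle protein, had 7 and 11 reads against 0 and 3, a ratio of 6.75 of saline over baicalein with a 95% counting interval of 1.97 to 35.8. Bub1, a checkpoint kinase gene, had 8 reads with saline in all and 2 with baicalein, and the interval of its ratio (4.5) ran from 0.899 to 43.5. Cenpe and Cenpf had 1 to 3 reads in any liver. Such intervals cover counting error only.

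The 5 mitotic genes and 2 MCM genes that fell are shown here with the 170 bases upstream of their start, because elements in these stretches are the textbook handle by which the cycle switches such genes. Sequences are from RefSeq on GRCm38.p6, 5′ to 3′ on the gene's strand, and their coordinates belong to that build and not to the deposited table. Capitals mark 3 motifs on either strand: CCAAT (the box bound by NF-Y), TTTGAA (the CHR element of mitotic genes) and TTTNGCGC (an E2F site).
Plk1: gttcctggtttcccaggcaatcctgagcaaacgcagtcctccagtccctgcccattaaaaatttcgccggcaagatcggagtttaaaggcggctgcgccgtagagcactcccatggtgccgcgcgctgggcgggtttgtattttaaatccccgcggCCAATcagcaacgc
Cdc20: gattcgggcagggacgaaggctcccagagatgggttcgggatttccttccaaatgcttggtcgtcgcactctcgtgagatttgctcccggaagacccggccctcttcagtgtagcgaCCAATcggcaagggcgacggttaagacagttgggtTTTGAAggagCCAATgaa
Ccnb2: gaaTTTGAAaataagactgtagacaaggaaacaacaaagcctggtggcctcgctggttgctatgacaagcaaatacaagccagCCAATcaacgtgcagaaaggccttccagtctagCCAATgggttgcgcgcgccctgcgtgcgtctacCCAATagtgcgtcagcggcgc
Cdk1: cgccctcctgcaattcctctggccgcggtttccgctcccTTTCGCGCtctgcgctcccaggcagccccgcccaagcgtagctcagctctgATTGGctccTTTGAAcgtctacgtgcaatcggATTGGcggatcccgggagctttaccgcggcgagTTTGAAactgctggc
Prc1: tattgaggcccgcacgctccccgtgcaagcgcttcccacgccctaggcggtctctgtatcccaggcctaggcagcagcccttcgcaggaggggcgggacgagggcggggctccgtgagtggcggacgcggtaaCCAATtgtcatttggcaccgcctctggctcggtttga
Mcm5: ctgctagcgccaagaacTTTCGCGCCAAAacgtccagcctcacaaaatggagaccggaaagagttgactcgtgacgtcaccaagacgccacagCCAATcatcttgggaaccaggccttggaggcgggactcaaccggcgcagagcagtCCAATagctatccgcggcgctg
Mcm7: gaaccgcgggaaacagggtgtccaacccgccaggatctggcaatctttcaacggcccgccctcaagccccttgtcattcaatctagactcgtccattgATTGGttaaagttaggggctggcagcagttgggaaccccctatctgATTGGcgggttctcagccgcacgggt
In the same order they lie at chr7:122159265-122159434 (plus strand), chr4:118437344-118437513 (minus strand), chr9:70421555-70421724 (minus strand), chr10:69352913-69353082 (minus strand), chr7:80294281-80294450 (plus strand), chr8:75109339-75109508 (plus strand) and chr5:138171884-138172053 (minus strand).

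Each of the 7 stretches holds CCAAT, on one strand or the other. TTTGAA is in those of Cdc20, Ccnb2 and Cdk1 (which also holds TTTNGCGC), and in Plk1 it begins 31 bases into the transcribed part, outside the stretch shown. In Prc1 it begins 5 bases before the start and runs across it. The capitals of Mcm5 near its left end are 2 E2F matches on opposite strands that overlap.

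Over windows of 300 bases (250 before and 50 after the start), 36 of the 46 genes had an entry. TTTGAA was in 15 of 20 mitotic genes, in 1 of 9 S phase genes and in 1 of 7 G1 genes, beside 20.2% of the 27025 genes of the RefSeq table. TTTNGCGC was in 5 of 9 S phase genes and 1 of 20 mitotic genes, beside 1.57%, and CCAAT in 18 of 20 mitotic genes and 7 of 9 S phase genes, beside 41.1%. These matches describe letters in a window, and binding was not measured.

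Livers that share a muscle signal can be set against each other, 1 of each treatment. Depth differs between these pairs too. Saline 1 and baicalein 2 had 17673137 and 18731616 reads, and saline 2 and baicalein 1 had 13976440 and 14766061. In saline 1 against baicalein 2, both with muscle reads, 25 of the 25 mitotic genes were lower with baicalein, and in saline 2 against baicalein 1, both nearly without, 22 of the 25 were. The exceptions were Kif23, Nusap1 and Bub1b. For the 19 mitotic genes whose groups do not overlap, the direction in any such pair is fixed, so these counts bear only on the other 6. Of those, some counted as lower only through scaling, at equal or nearly equal reads. In the pair with muscle reads these were Birc5 (31 and 32 reads), Cenpe (2 and 2) and Cenpf (1 and 1). In the other pair it was Cenpe (1 and 1). The share of all genes lower in such pairs was not worked out. Plk1 had log2 ratios of -3.71 and -2.36 in these pairs, Cdc20 of -2.32 and -1.34, and Ccnd1 of 1.29 and 1.76 (CPM plus 0.1; single livers, with no test).

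**Figure D3:**
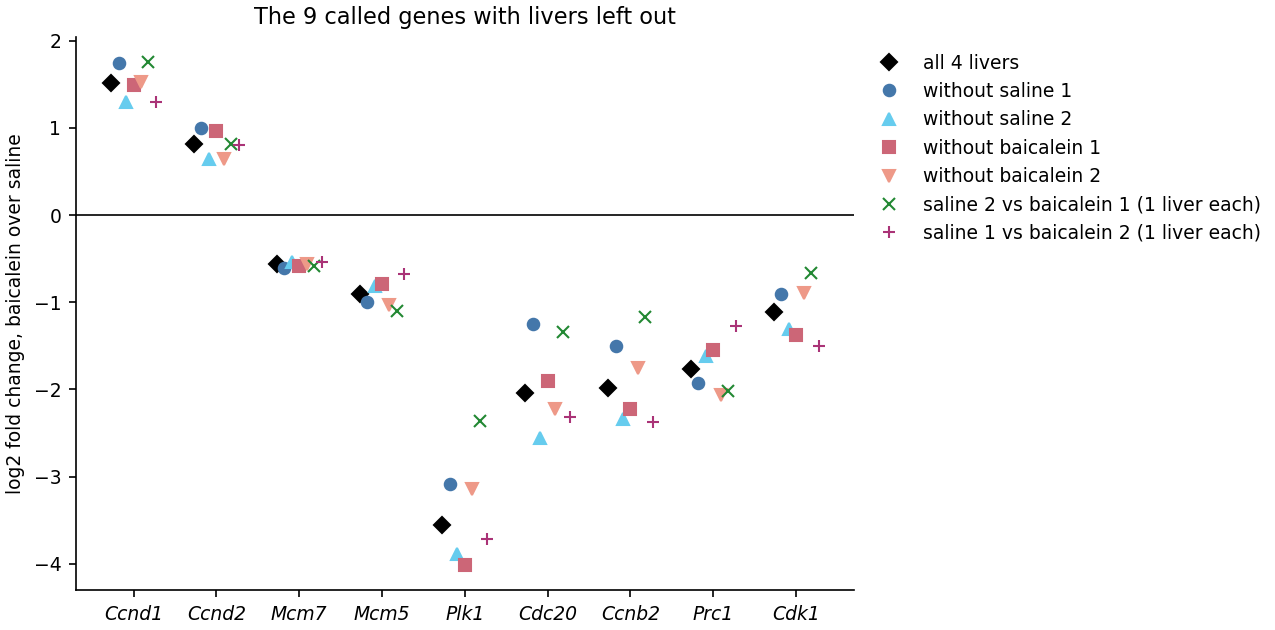
For each of the 9 called genes, symbols give the log2 fold change (baicalein over saline) with all 4 livers, with 1 liver left out, and in the 2 single-liver pairs that share a muscle signal. The symbols of Plk1 run from -4.01 to -2.36 and those of Ccnd1 from 1.29 to 1.76; the genes were called on these same livers with groups that do not overlap, so their side of 0 was fixed by that choice.

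Markers of other cells moved with the mitotic genes in part. Of 6 erythroid markers, Alas2 (2782 and 1947 reads with saline, 300 and 462 with baicalein) and Hbb-bt (1265 and 717 against 151 and 257) fell, and the list summed to 241 and 197 CPM against 34.7 and 38.4 CPM. Epb42, encoding a protein of the red cell membrane, was near 0, with 2 and 2 reads under saline against 1 and 0 under baicalein. Slc4a1 had 23 and 7 reads against 9 and 0, and Klf1, a factor of erythroid precursors, had 29 and 21 reads with saline and 42 and 51 with baicalein. The part of erythroid cells in the mitotic result was not tested. Markers of macrophages went the other way: 6 of 7 rose, with sums of 319 to 365 CPM with saline and 510 to 599 CPM with baicalein, and the other, Cd68, was higher in both baicalein livers but did not pass. Of 6 markers of sinusoidal endothelium 4 rose, and of 7 of stellate cells and fibroblasts 4 rose. Across all tested genes, 7.65% were called higher and 7.9% lower. T and NK cell markers summed to 6.82 and 7.15 CPM against 10.9 and 11.3 CPM, and B and plasma cell markers to 6.11 and 5.91 CPM against 17.4 and 15.9 CPM. Of the 7 T and NK markers 5 were higher without overlap, Cd4 was lower and Klrb1c overlapped, and none was called. Of the 6 B and plasma cell markers 5 were higher without overlap. Among all genes with any read, 26.8% were higher without overlap and 24.7% lower. Only Jchain was called, at 0.941 and 0.656 CPM with saline and 6.95 and 5.84 CPM with baicalein. Cholangiocyte markers stood apart in baicalein 2, at 165 CPM beside 10.2 to 22.6 CPM in the other 3 livers, most of it from Krt19 (1448 reads) and Muc1 (1194 reads). Sox9, the only one of these 6 markers called, fell from 13.2 and 10.6 CPM with saline to 4.4 and 6.24 CPM with baicalein (log2 fold change -1.16, SE 0.22, edgeR adjusted p = 0.00912).

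**Figure D4:**
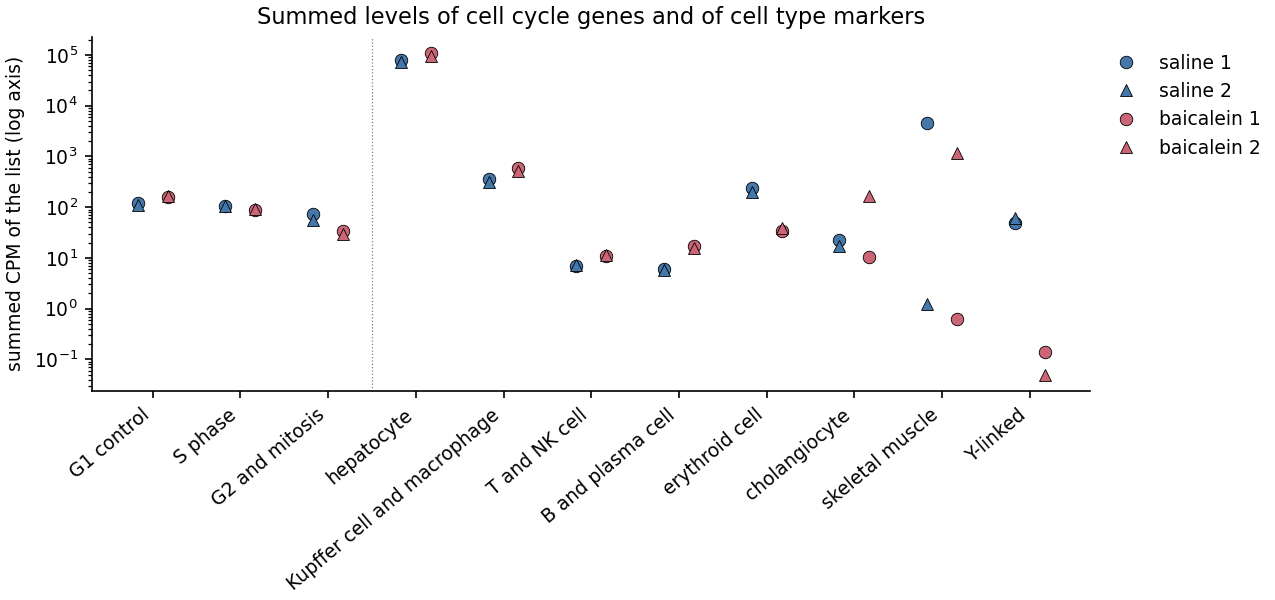
Each symbol is the summed CPM (log axis) of a gene list in 1 liver, for the 3 groups of cell cycle genes left of the dotted line and for cell type markers right of it. The sums of the mitotic genes and of the erythroid markers are lower in both baicalein livers, whereas the sums of macrophage and lymphocyte markers are higher. Skeletal muscle splits saline 1 and baicalein 2 from the other 2. Single genes of a list can go against its sum, as Klf1 and Cd4 do.

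Other genes of the same machinery were taken from 5 lists of 149 further genes, of which 126 were tested. Among 30 tested genes of G2 and mitosis, 5 fell in edgeR (7.9% of all tested genes did) and the rest did not pass. Of all 45, 25 did not overlap with baicalein lower and 3 with baicalein higher, beside 24.7% and 26.8% of all genes with any read. Nek2, a centrosome kinase gene, fell most, from 8.01 ± 0.395 to 1.45 ± 0.0819 CPM (SD, n = 2 each; log2 fold change -2.46, SE 0.26, edgeR adjusted p = 5.10e-04). It had 141 and 106 reads against 22 and 28, and it was called in every one of 11 alternative fits. Racgap1, of cytokinesis, and Spc25, of the kinetochore, fell by 1.20 (SE 0.30) and 1.08 (SE 0.30) on the log2 scale. Ccnf, encoding cyclin F, fell by 1.12 (SE 0.25) and Pttg1, encoding securin, by 0.56 (SE 0.12). Any 1 liver left out ended the calls of Racgap1 and Spc25 (edgeR adjusted p up to 0.183 and 0.195; DESeq2 called neither), saline 1 or saline 2 that of Ccnf (up to 0.232), and saline 1 or baicalein 2 that of Pttg1 (up to 0.113). Wee1, the kinase that restrains Cdk1, was at a log2 fold change of 0.52 (SE 0.16, edgeR adjusted p = 0.0613).

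Of 39 further replication genes tested, 1 fell and 1 rose, beside 15.5% of all tested genes called in either direction. Mcm10, a replication initiation factor, fell from 71.9 ± 4.62 to 30.1 ± 0.0730 CPM (SD, n = 2 each; log2 fold change -1.25, SE 0.09, edgeR adjusted p = 6.15e-05). Tk1, the thymidine kinase of the salvage pathway, rose from 19.2 ± 1.69 to 33.9 ± 3.17 CPM (SD, n = 2 each; log2 fold change 0.82, SE 0.12, edgeR adjusted p = 0.00300). Their reads were 1168 and 1031 against 439 and 603 for Mcm10, and 347 and 247 against 526 and 635 for Tk1. Both were called with any 1 liver left out, and 169 bases of Tk1 overlap Afmid on the other strand. The other 37 did not pass, and the list's median log2 fold change was -0.08, beside 0.01 for all tested genes.

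In G1 and at the restriction point, Myc fell most among 25 tested genes. This growth-driving transcription factor had 268 and 260 reads with saline and 33 and 59 with baicalein, or 17.4 ± 2.27 against 2.61 ± 0.477 CPM (SD, n = 2 each; log2 fold change -2.72, SE 0.20, edgeR adjusted p = 6.15e-05). Its call held with each liver left out. Cks2, a small subunit of cyclin-dependent kinases, also fell (log2 fold change -0.57, SE 0.16, edgeR adjusted p = 0.0403), though not in DESeq2 and not without saline 2, baicalein 1 or baicalein 2 (up to 0.277). The kinase partners of the D-type cyclins did not pass, at log2 fold changes of 0.05 (SE 0.11) for Cdk4 and -0.30 (SE 0.13) for Cdk6. Rb1, encoding the retinoblastoma protein, was at 0.03 (SE 0.21).

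Cyclins that do not drive division mostly did not pass. Of 13 tested, Ccnt2, a partner of the transcription elongation kinase Cdk9, rose (log2 fold change 0.38, SE 0.10, edgeR adjusted p = 0.0399), and Ccng2, encoding cyclin G2, fell (log2 fold change -0.63, SE 0.13, edgeR adjusted p = 0.0133). Any 1 liver left out ended the call of Ccnt2 (adjusted p up to 0.178; DESeq2 did not call it), and saline 2 or baicalein 1 left out that of Ccng2 (up to 0.0842). Of 20 p53 target genes, 3 fell and 1 rose. Across all tested genes 15.5% were called in either direction, and the counts of this list and of the cyclins above stand near that share. Plk3, a stress-responsive polo-like kinase, fell from 76.7 ± 17.9 to 15.8 ± 1.93 CPM (SD, n = 2 each; log2 fold change -2.28, SE 0.20, edgeR adjusted p = 0.00364). Trp53inp1 and Btg2 fell by 1.17 (SE 0.16) and 0.45 (SE 0.09), and Sesn1 rose by 0.62 (SE 0.13). Mdm2 and Ccng1, 2 direct targets, did not pass, at log2 fold changes of -0.13 (SE 0.12) and 0.10 (SE 0.33). Plk3 was not called without baicalein 2 (edgeR adjusted p = 0.0586; range over 11 alternatives 2.00e-31 to 0.0586). The calls of Trp53inp1 (without baicalein 1 or 2, up to 0.0728), Btg2 (without saline 1 or baicalein 1, up to 0.0696) and Sesn1 (without saline 1 or baicalein 1) were lost likewise.

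**Figure D5:**
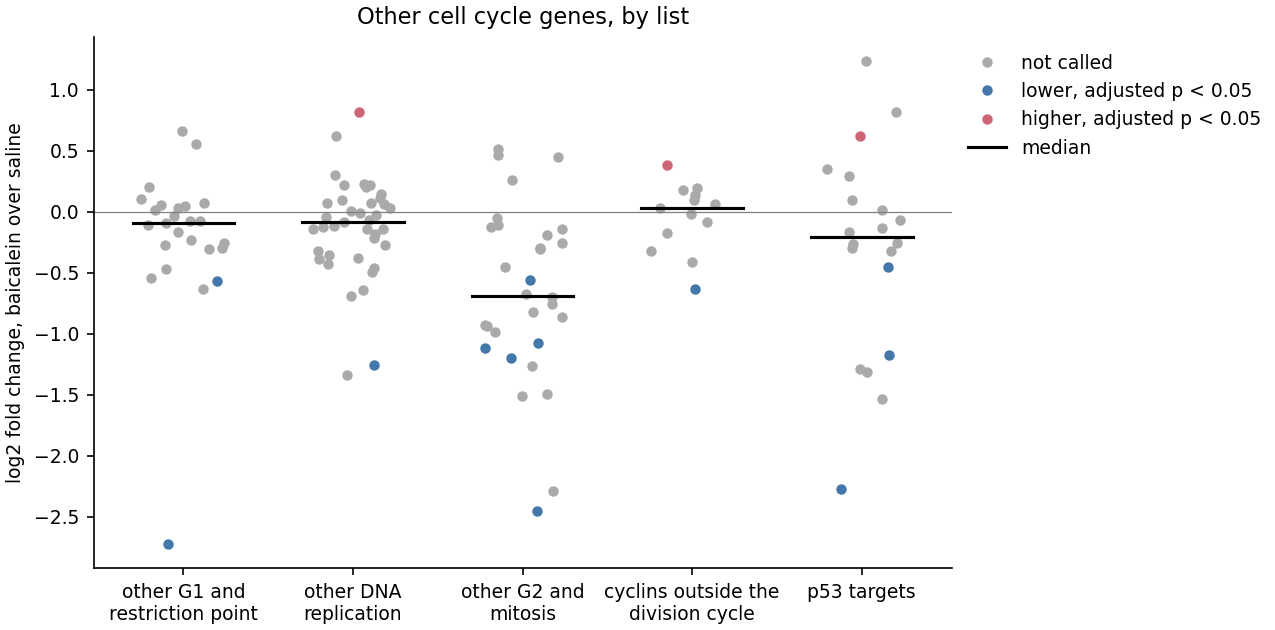
Each dot is the log2 fold change (baicalein over saline) of 1 tested gene in 5 lists of other cell cycle genes, and black lines are medians. The list of other G2 and mitosis genes has its median at -0.69, and those of the remaining lists lie between -0.21 and 0.03.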

How the data were processed

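The 4 livers and their groups are described above. The authors deposited 1 table with a whole-number read count and an FPKM value per gene and liver, per the file headers. The genome build was mm10, per the submitters' processing notes; aligner, counting tool and strand setting: not given in the sources used here. Positions in the table may be of another build: of the 46 genes, 1 had the same start and end in GENCODE M21. Columns were tied to livers by their titles.

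Counts were used as deposited; the deposited FPKM implied the same counts for all 46 genes within 1%, and were used only for levels per length. Genes were kept by filterByExpr (minimum count of 10), scaled by TMM (factors 0.963 to 1.07) and tested in edgeR 4.0.16 (R 4.3.3; robust quasi-likelihood, two-sided, baicalein against saline, no covariate) with Benjamini-Hochberg adjustment over 12657 genes and a threshold of 0.05. With 2 livers a group, the fit borrows its spread from all genes. The test was tested on simulated data. These were drawn from its own fitted spread, without the muscle or Y-linked differences of these livers, so they do not check the calls made here. A count of 3 equals 0.150 to 0.219 CPM. Within groups the counts differed by more than sampling noise (chi-square per degree of freedom 24.8 and 19.7), so no 2 livers were counted as 1 sample.

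Alternatives were other size factors (RLE), DESeq2 1.42.0, limma-voom (limma 3.58.1), no filter, a minimum mean CPM of 1, a block for the replicate number, and leaving out each liver; crossed pairs and single-liver ratios were added after seeing the data. Genes were named by rule: every member called, the 4 of smallest p in each role, and called genes of the 5 further lists (other members, and a few further genes chosen for their role, are also named). The members and lists were chosen with earlier results of these data known.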

Additional observations from a re-analysis of the deposited data

How the results depend on the processing

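No called gene reversed under any of the 11 alternatives. The called members have groups that do not overlap in these same livers, so their direction could hardly have changed, and the absence of reversals does not measure robustness. Over all genes, 968 were called higher and 1000 lower; with 1 liver left out these were 521 to 665 and 535 to 663. Of the members, 2 were called higher and 7 lower; with 1 liver left out 1 to 2 were higher and 0 to 3 lower, and of the 149 further genes (3 higher, 12 lower) 1 to 2 and 6 to 7. The 0 came without saline 1, where edgeR gave 5 of 41 tested members an unadjusted p below 0.05 on the lower side, and DESeq2 and limma-voom on the same 3 livers also called 0. Left-out fits have fewer samples, and the lone liver of a group is assumed to vary like the others. DESeq2 with all 4 livers called 3 members lower; the cause was not tested.

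Same-numbered livers deviated against each other (correlation of deviations -0.74 over tested genes). With 2 livers a group, the crossed pairs give the mirror value (0.74) by construction. Saline 1 and baicalein 2 also shared muscle reads and the largest library totals. This correlation therefore does not settle whether the replicate numbers pair the livers. With the replicate number as a block, 531 genes were called higher and 601 lower, 1 member higher and 1 lower, and 1 further gene higher. Crossed pairs (saline 1 with baicalein 2) were chosen after seeing the data. With them, 1809 genes were higher and 1689 lower, 16 members lower, and 6 further genes higher and 19 lower. They also gave the lowest adjusted p in every range printed here over all alternatives. Depth limits the mitotic genes most: 5 of the 25 could not be tested.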

Other observations

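Genes used alike as proliferation markers stood at very unlike levels in these livers. Pcna averaged 8.24 FPKM over the 4 livers, against 0.0493 FPKM for Mki67, which had at most 10 reads in any liver. In each of the 4 livers, the 11 S phase members summed to more CPM than the 25 mitotic members, with 88.4 to 107 CPM against 29.4 to 72.9 CPM.

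Mcm10 was abundant beside some of the genes it works with. It had 6.56 FPKM on average, the third highest of 43 further replication genes after Gins4 (8.82) and Rpa1 (8.12). Cdc45, a partner at the replication fork, had 0.431 FPKM, and the members Mcm2 to Mcm7 ran from 0.903 (Mcm2) to 3.77 FPKM (Mcm7). The member Pcna, at 8.24 FPKM, stood above Mcm10. The nearest genes in the table are Ucma, 3966 bases away with 0 reads, and Optn, 7851 bases away on the same strand with a mean of 1263 reads. It was picked out here with its values known.

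The 2 enzymes that supply thymidylate gave unlike values: Tk1 rose (log2 fold change 0.82, SE 0.12) while Tyms had a log2 fold change of -0.14 (SE 0.19, edgeR adjusted p = 0.680). Their difference was not tested.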
